A study of Mus musculus musculus x Mus musculus castaneus with 12 samples.

Results

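A set of 10 basement membrane genes, of 24346 genes in the tables, was followed across 12 RNA-seq libraries of mouse embryonic stem (ES) cells with and without the histone demethylase gene Kdm6a. They were taken by symbol as the laminin chain genes Lama1, Lama5, Lamb1 and Lamc1, the collagen IV genes Col4a1 and Col4a2, the nidogen genes Nid1 and Nid2, the perlecan gene Hspg2 and Sparc, chosen by the level of Lama1, which had been seen to be higher in the knockout (KO) clones of one cross (BC). The question was whether its partners moved with it, on which parental alleles, and in the reciprocal cross. Since that difference chose the set, the KO and wt values of all 10 genes in the first cross are given as a description, without a test (those of the other 9 genes enter a test only where the KO effects of both crosses are compared), and the same holds for Lama1 wherever the wild-type (wt) libraries of that cross enter.

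The lines were F1 hybrids, so that C57BL/6 (BL6) and castaneus (cast) alleles could be told apart at SNPs. In the BC cross the mother was BL6, and in the CB cross she was cast. The groups were male BC wt (2 libraries), male BC Kdm6a KO (3 clones), female BC wt (2), male CB wt (2) and male CB Kdm6a KO (3 clones). All were undifferentiated cells kept in LIF and serum on inactivated mouse fibroblast feeders, which were reduced by pre-plating on gelatin. Clones ΔE1 and ΔE3 (BC) and ΔE2.5 and ΔE2.7 (CB) carried a deletion inside the gene, and ΔP4 (BC) and ΔP2.1 (CB) a deletion at the promoter. ΔE1 and ΔE3 stem from a single editing event with a shared off-target deletion on the X chromosome, so the BC KO group holds 2 independent events. The CB wt line carries an actin-GFP transgene. Nothing in the labels says that the wt libraries came from separate cultures, so p-values measure only the spread between these samples.

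A basement membrane is a thin extracellular sheet on which epithelial and other cells rest. Laminins are trimers of an alpha, a beta and a gamma chain that polymerise at the cell surface; collagen IV forms a second network, and nidogens and perlecan link the networks. In the early embryo, laminin made by the epiblast and the extraembryonic endoderm lines the first basement membranes.

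The guide RNAs that separate exonic from promoter clones are shown because the exonic and promoter clones of the CB cross differ in several of these genes. The only promoter clone of that cross is ΔP2.1, so deletion type, clone and the chromosome differences given below cannot be told apart. They are written 5′ to 3′ with the adjacent NGG motif (PAM) in capitals.
ΔE left: gaaacctcacgaacccgaaaAGG
ΔE right: tagcattatctgcataccagAGG
ΔP left: ggacactgcatgtttgatggAGG
ΔP right: agctacatactccaaaggagAGG
The left exonic guide matched exon 2 of a Kdm6a transcript on the minus strand at chrX:18163390-18163409 (GRCm38), and the other guides matched no annotated exon sequence of the gene. The paper places both exonic guides in exons, and without a genome sequence at hand the other guides could not be placed here. Kdm6a stood at 49.8 and 51.3 TPM (a level per transcript length and library size) in BC wt and at 51.0 and 51.7 TPM in CB wt. It was at 11.6, 13.5 and 0.044 TPM in ΔE1, ΔE3 and ΔP4, and at 2.07, 7.28 and 0.036 TPM in ΔE2.5, ΔE2.7 and ΔP2.1.

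Libraries held 49975599 to 89070402 fragments, of which 8.10 to 10.1% covered a SNP with the BL6 base and 7.84 to 9.81% one with the cast base. The 10 ES cell identity genes summed to 4857 to 10516 TPM in every library. Some libraries stood apart in their chromosomes. The median BL6 share of chromosome 8 was 66.8 and 67.1% in BC wt and 67.7% in ΔP4, but 51.1 and 51.6% in ΔE1 and ΔE3. That of chromosome 1 was 67.7 to 68.2% in the male BC libraries. In the CB cross it was 52.5 and 52.4% in wt, 68.4% in ΔE2.5, 35.3% in ΔE2.7 and 48.7% in ΔP2.1. In ΔP2.1, 10.7% of 9349 genes on chromosomes 2 to 19 had a BL6 share over 15 percentage points away from CB wt, against 2.01 and 1.84% in ΔE2.5 and ΔE2.7 and 2.00% between the CB wt libraries. The CB differences between KO and wt are therefore also given without ΔP2.1.

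Lama1 encodes the alpha-1 chain, the alpha chain of the earliest embryonic laminin. The gene lies on the plus strand at chr17:67697259-67822647. It was at 18.8 and 16.6 TPM in BC wt and at 47.1, 47.7 and 47.4 TPM in ΔE1, ΔE3 and ΔP4. The 3 clones lay close together and all above wt, with a mean of 47.4 ± 0.296 TPM (SD, n = 3) against 17.7 ± 1.55 TPM (SD, n = 2), 2.68 times higher. In the edgeR fit the log2 fold change was 1.38 ± 0.11 (SE). Lama1 was the 1 gene called higher of 13805 tested in this contrast, at an FDR under 0.05 and at least 1.5-fold, a background of 0.00724%, and nothing is read from this because the same contrast chose the gene. In either direction edgeR called 4 genes (0.029%) and DESeq2 260 (1.88%), 155 of them higher (1.12%), with Lama1 the 1 member called by each.

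**Figure D1:**
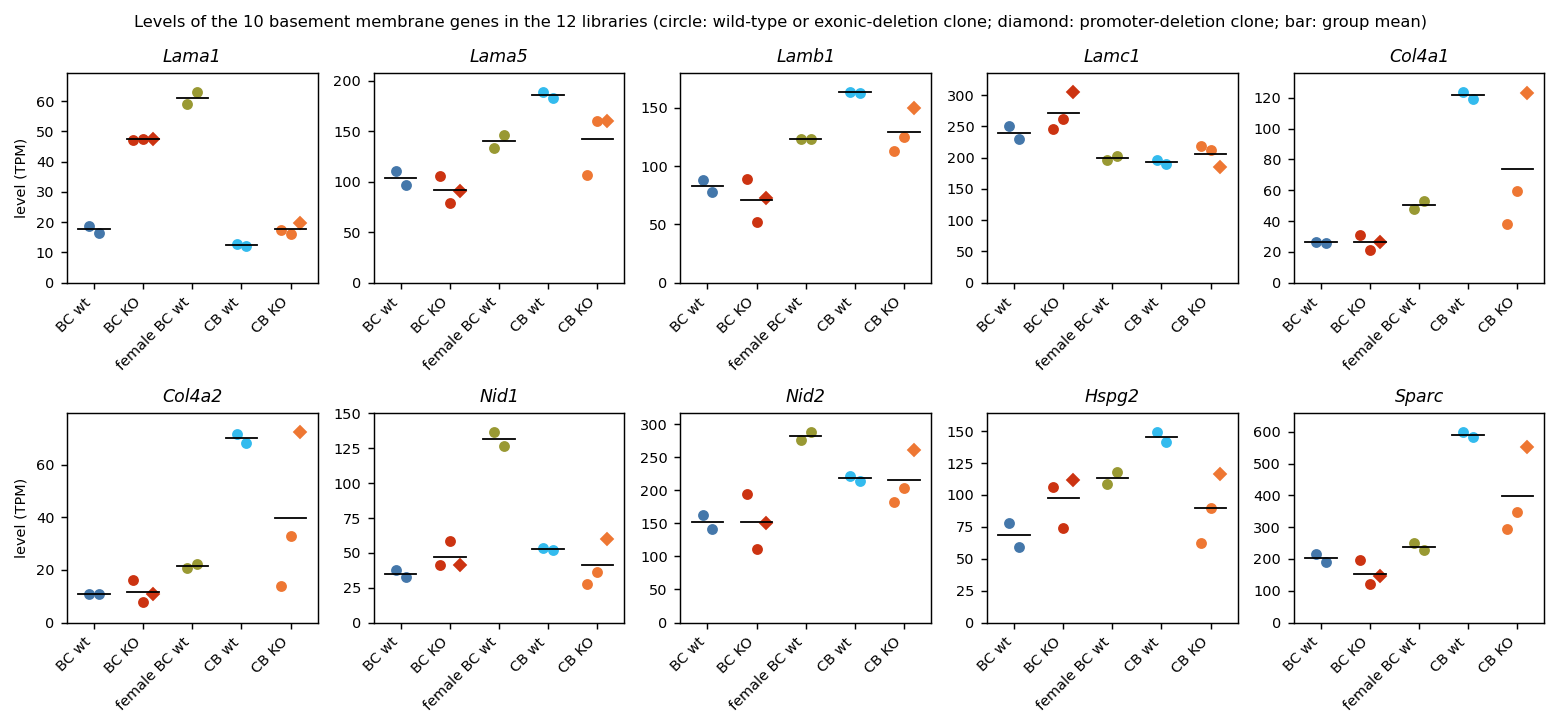
Level (TPM, linear axis from 0) of each of the 10 genes in the 12 libraries by group; points are libraries, diamonds the promoter-deletion clones and bars group means. Lama1 sits at 47.1 to 47.7 TPM in the 3 BC KO clones and at 16.6 and 18.8 TPM in BC wt, while most other genes overlap between BC KO and wt.

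The laminin partners did not share this pattern in BC. Lama5, the other alpha chain here, was at 111 and 96.9 TPM in wt and at 105, 78.8 and 90.5 TPM in the clones, which overlap. Lamb1, the beta chain that pairs with both alpha chains, was at 88.2 and 78.1 TPM in wt and at 89.1, 52.1 and 72.8 TPM in ΔE1, ΔE3 and ΔP4, so ΔE1 was just above wt and the others below. Lamc1, the gamma chain, was at 249.9 and 229 TPM in wt and 246, 262 and 305 TPM in the clones, overlapping wt through ΔE1. Their log2 fold changes were -0.22 ± 0.15 (Lama5), -0.26 ± 0.21 (Lamb1) and 0.13 ± 0.11 (Lamc1). As a share of the summed Lama1 and Lama5 level, Lama1 made up 14.5 and 14.6% in BC wt and 30.9, 37.7 and 34.4% in the clones. In BC wt Lama1 was the second lowest of the 10 genes, above Col4a2 alone, and in BC KO it ranked seventh, next to Nid1 at 46.9 ± 10.0 TPM, from which it did not differ beyond that spread.

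The other basement membrane genes went different ways in the BC clones. Col4a1 and Col4a2 encode the chains of the ubiquitous collagen IV trimer and lie head to head on chromosome 8, Col4a1 on the minus strand (chr8:11198423-11312826) and Col4a2 on the plus strand (chr8:11312805-11449287). Their annotated 5′ ends overlap by 22 bases, and the libraries were unstranded, so fragments in that stretch cannot be assigned to one of them. Col4a1 was at 26.6 and 25.7 TPM in wt and at 30.9, 21.3 and 26.5 TPM in the clones. Col4a2 was at 10.99 and 10.96 TPM in wt and at 16.1, 7.93 and 10.9 TPM in the clones. ΔE1 was above and ΔE3 below wt for both genes. The chromosome 8 medians of these 2 clones were -0.47 and -0.50 on the log2 scale against wt, and the part of chromosome 8 in these values was not tested. With the chromosome median removed, the BC log2 difference of Col4a1 was 0.31 in place of -0.04, and that of Col4a2 0.39 in place of 0.04.

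Among the linkers, Nid1 (chr13:13437551-13512269) was at 37.4 and 32.6 TPM in BC wt and at 41.2, 58.4 and 41.0 TPM in the clones, all above wt. Its relative Nid2 (chr14:19751265-19811787) was at 163 and 142 TPM in wt and at 194, 112 and 151 TPM in the clones, on both sides of wt. Hspg2, which encodes the proteoglycan perlecan (chr4:137468769-137570630), was at 77.7 and 59.2 TPM in wt and at 107, 74.0 and 112 TPM in the clones, so that ΔE3 lay between the wt libraries. Sparc, a collagen-binding matrix glycoprotein (chr11:55394500-55423183), was at 216 and 189 TPM in wt and at 197, 120 and 146 TPM in the clones. Hspg2 had the second largest log2 difference of the set in BC, 0.46 ± 0.19, and Sparc the lowest, -0.43 ± 0.21.

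Over the 10 genes, Lama1 and Nid1 had every BC KO clone above both wt libraries, against 21% of all tested genes, and no member had every clone below, against 10.9%. The median log2 fold change of the 9 genes other than Lama1 was -0.04, beside 0.01 over all tested genes. By clone, 7 members were above both wt libraries in ΔE1, 3 in ΔE3 and 4 in ΔP4, while 6 were below in ΔE3, 4 in ΔP4 and 0 in ΔE1. Some cell-state markers also differed between BC KO and wt. Of the 10 ES cell identity genes, 5 were above wt in every BC KO clone and 0 below, with 4 called by DESeq2 and 0 by edgeR and a median log2 fold change of 0.35. Of the 6 formative or primed epiblast genes, which mark exit from the naive state, 5 were below wt in every clone and 0 above. DESeq2 called 2 of them and edgeR 0, and their median log2 fold change was -0.89. Over all tested genes DESeq2 called 1.88%. Of 10 tested endoderm marker genes, 3 were above wt in every BC KO clone and 4 below. None of these was called, and their median was 0.35. Of 7 tested feeder fibroblast markers, 4 were below wt in every BC KO clone and 0 above. DESeq2 called 2 of them and edgeR 0, and their median log2 fold change was -0.92. The formative genes summed to 746 to 760 TPM in BC wt, 363 to 554 TPM in BC KO, 342 to 366 TPM in female BC wt, 879 to 893 TPM in CB wt and 637 to 1050 TPM in CB KO. In female BC wt, in which Lama1 was highest, the identity genes were uneven. The naive-state factor gene Klf4 differed most, at 590 and 598 TPM against 58.1 and 54.3 TPM in male BC wt and 88.2 to 141 TPM in BC KO. Pou5f1, Nanog, Zfp42, Esrrb and Tfcp2l1 were also above male BC wt. Sox2 was barely so, at 1172 and 1164 TPM against 1128 and 967 TPM, and Dppa3, Tdgf1 and Utf1 overlapped. In CB KO, 3 identity genes were above wt in every clone and 0 below, and 2 formative genes were above and 0 below. Of all genes tested in CB, 14.7% had every clone above and 32.3% every clone below. The part of cell state in the Lama1 values was not tested. The all-gene median of ΔP4 was itself 0.10 above wt on the log2 TPM scale, and that of the other 5 KO clones was within 0.09 of wt.

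**Figure D2:**
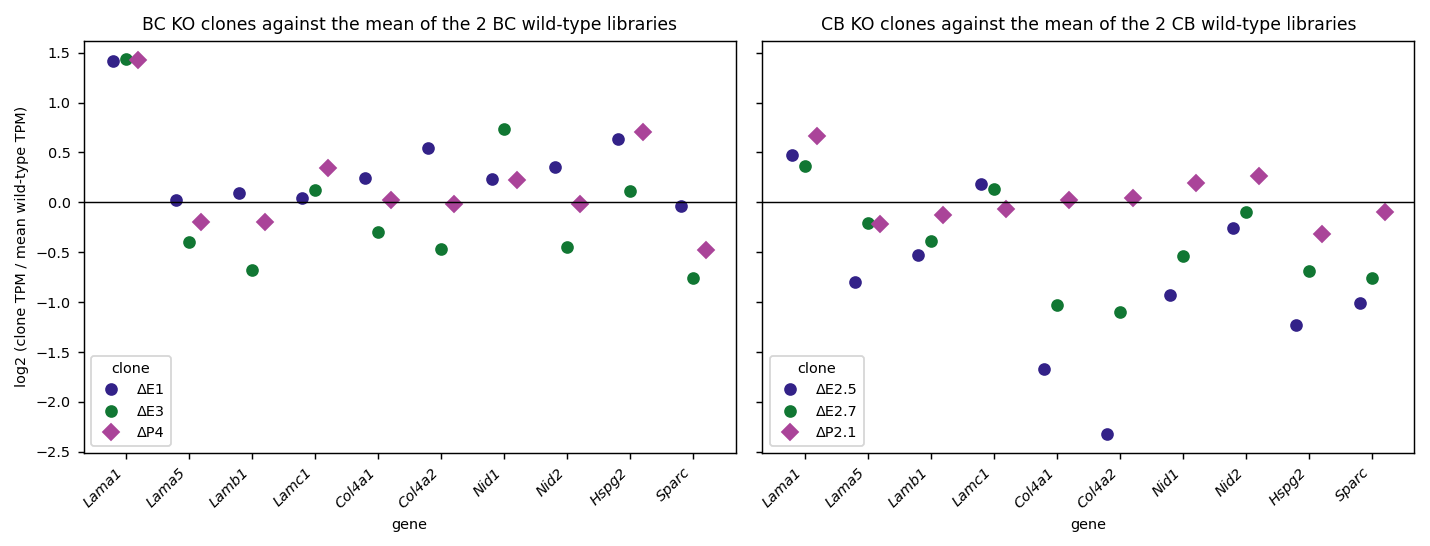
Log2 ratio of each KO clone's TPM to the mean of the 2 wt libraries of its cross, for the 10 genes; circles are exonic-deletion clones and diamonds promoter-deletion clones. Lama1 is at 1.41 to 1.43 in the 3 BC clones and at 0.36 to 0.67 in the 3 CB clones, while Col4a1 and Col4a2 are low in the 2 CB exonic clones and near 0 in ΔP2.1.

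In the CB cross Lama1 was again above wt in every KO clone, by less. It was at 12.7 and 12.2 TPM in CB wt and at 17.3, 16.0 and 19.8 TPM in ΔE2.5, ΔE2.7 and ΔP2.1. The groups did not overlap, and the log2 fold change was 0.58 ± 0.10 (SE), with an adjusted p of 0.13 in edgeR's quasi-likelihood test. In DESeq2 the adjusted p was 0.000804 at the same log2 difference, just under the 1.5-fold cutoff, so neither tool called it. Without ΔP2.1 the log2 fold change was 0.50 ± 0.06 with an edgeR adjusted p of 0.0238, also under the fold cutoff. The KO difference was smaller in CB than in BC by 0.81 ± 0.15 on the log2 scale, given as a description because the BC values chose the gene.

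The laminin partners lay below or near wt in CB KO. Lama5 (chr2:180176373-180225859) was at 188 and 183 TPM in wt and at 107, 160 and 160 TPM in ΔE2.5, ΔE2.7 and ΔP2.1, every clone below wt. Lamb1 (chr12:31265234-31329644) was at 163.5 and 163.2 TPM in wt and at 113, 125 and 150 TPM in the clones, also all below. Lamc1 (chr1:153218922-153332786) was at 197 and 190 TPM in wt and at 219, 212 and 185 TPM in the clones, above wt in the exonic clones and below it in ΔP2.1. None passed the test, with edgeR log2 fold changes of -0.31 ± 0.19 (adjusted p = 0.40), -0.26 ± 0.12 (0.304) and 0.16 ± 0.10 (0.391). Without ΔP2.1 they were -0.39 ± 0.21 (0.262), -0.37 ± 0.07 (0.0487, under the fold cutoff) and 0.24 ± 0.05 (0.0582). The chromosome 1 medians of ΔE2.5 and ΔE2.7 were 0.44 and 0.36 above wt on the log2 scale, and with the chromosome median removed the Lamc1 difference was -0.13.

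Collagen IV and Sparc lay below wt in the CB exonic clones and near or closer to wt in ΔP2.1. Col4a1 was at 123.6 and 119 TPM in CB wt, at 38.3 and 59.8 TPM in ΔE2.5 and ΔE2.7, and at 123 TPM in ΔP2.1. Col4a2 was at 71.8 and 68.3 TPM in wt, 14.02 and 32.8 TPM in the exonic clones and 72.4 TPM in ΔP2.1. Sparc was at 598 and 583 TPM in wt, 294 and 348 TPM in the exonic clones and 551 TPM in ΔP2.1. The exonic clones lay far below both wt libraries for all 3 genes, and ΔE2.5 was the lowest each time. In the fit with all 3 clones none was called, with edgeR log2 fold changes of -0.65 ± 0.46 (adjusted p = 0.455), -0.75 ± 0.62 (0.511) and -0.50 ± 0.26 (0.339). Without ΔP2.1, Col4a1 fell by 1.23 ± 0.23 on the log2 scale (edgeR adjusted p = 0.0454) and Sparc by 0.79 ± 0.10 (0.0255), 2.34-fold and 1.74-fold. Col4a2 had the largest difference, -1.497 ± 0.428, with an edgeR adjusted p of 0.0894.

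Hspg2 was below wt in every CB clone, at 149 and 141 TPM in wt and at 62.1, 89.9 and 117 TPM in ΔE2.5, ΔE2.7 and ΔP2.1. Its edgeR log2 fold change was -0.62 ± 0.25 (adjusted p = 0.243), and -0.85 ± 0.20 (0.0622) without ΔP2.1. Nid1 was at 53.8 and 51.8 TPM in wt and at 27.7, 36.3 and 60.2 TPM in the clones, low in the exonic clones and above wt in ΔP2.1. Nid2 was at 221 and 215 TPM in wt and at 182, 203 and 261 TPM in the clones, with the same split. The edgeR log2 fold changes of Nid1 and Nid2 were -0.28 ± 0.31 (adjusted p = 0.641) and 0.06 ± 0.16 (0.85), and -0.64 ± 0.15 (0.062) and -0.10 ± 0.08 (0.439) without ΔP2.1.

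With all 3 CB clones edgeR called 0 of the 10 members and 0 of 13801 genes, 0%. At an unadjusted p under 0.05 it had 2 members, Lama1 and Hspg2, and 2832 genes, 20.5%. DESeq2 called 494 genes, 3.58%, and 0 members. The 4 members Lama5, Lamb1, Hspg2 and Sparc had every KO clone below wt, against 32.3% of all genes, and Lama1 alone had every clone above, against 14.7%. Without ΔP2.1 edgeR called 927 genes, 6.76%, among them 2 members, both lower, against 4.13% of genes called lower; both exonic clones were below wt for 8 members and above it for 2, against 42.2 and 24.8% of genes. The median log2 fold change of the 9 genes other than Lama1 was -0.31 with all clones, beside 0.01 over all genes. No member was called in the edgeR interaction test of the KO effect between the crosses, in which the smallest adjusted p of the 9 genes other than Lama1 was 0.19 (Hspg2) and 9 of 14298 genes were called, 0.0629%. DESeq2 called 555 genes, 3.88%, and 0 of these 9.

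The fibroblast genes Col1a1, Col3a1 and Col5a2 were, like collagen IV, low in the CB exonic clones and not in ΔP2.1. Col1a2 and Dcn were low in the exonic clones and also below wt in ΔP2.1, while Thy1 was not low in the exonic clones. Col1a1, the main fibrillar collagen gene of fibroblasts, was at 56.3 and 52.1 TPM in CB wt, 7.54 and 19.9 TPM in ΔE2.5 and ΔE2.7 and 102 TPM in ΔP2.1. Over the 12 fibroblast markers the summed level was 95.2 to 101 TPM in CB wt and 32.8 to 151 TPM in CB KO, 38.4 to 41.2 TPM in BC wt and 16.0 to 29.1 TPM in BC KO. Of the other defining markers in CB, Col3a1 was at 7.93 and 7.25 TPM in wt, 1.39 and 5.02 TPM in ΔE2.5 and ΔE2.7 and 13.1 TPM in ΔP2.1. Col1a2 was at 2.83 and 2.76 TPM in wt, 0.159 and 0.358 TPM in the exonic clones and 1.41 TPM in ΔP2.1. Thy1 was at 10.7 to 16.0 TPM. Col5a2, not a defining marker, was at 7.21 and 7.44 TPM in wt, 1.33 and 2.63 TPM in the exonic clones and 11.8 TPM in ΔP2.1. Of the SNP-covering Col1a1 fragments in CB, 20.8 to 25.1% carried the BL6 base. The other defining fibroblast genes did not share this balance. In CB wt the BL6 share was 74.3 and 62.1% for Col1a2 and 62.1 and 64.4% for Col3a1, both from few fragments. For Thy1 it was 50.3 and 54.1%. The Col3a1 share was 54.5, 23.7 and 33.8% in ΔE2.5, ΔE2.7 and ΔP2.1. The endoderm markers summed to 105 to 106 TPM over 13 genes in CB wt and to 64.5 to 103 TPM in CB KO, and their defining genes Gata6, Gata4, Sox17 and Sox7 were at 0.296 to 7.47 TPM in all 12 libraries. In bulk RNA, fewer cells of a type and less RNA per cell cannot be told apart, and the part of either cell type in the collagen IV and Sparc values was not tested.

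Allelic levels were set by splitting the TPM of a gene by its SNP fragments, after each library was scaled so that its autosomes gave both alleles alike. Lama1 came more from the cast allele in all 12 libraries, whichever parent gave it, with a BL6 share of 27.8 to 37.1% of 747 to 6459 SNP fragments. In BC the maternal BL6 allele was at 4.58 and 4.36 TPM in wt and at 14.6, 13.7 and 14.6 TPM in the clones. The paternal cast allele was at 14.2 and 12.2 TPM in wt and at 32.5, 34.0 and 32.8 TPM in the clones. Both alleles were therefore higher in every clone, with log2 fold changes of 1.60 ± 0.13 for the maternal and 1.29 ± 0.14 for the paternal allele. The maternal value was called by edgeR, beside 0.00822% of genes called higher, and the paternal one was not (0%). DESeq2 called both, with 21 of 12167 genes called higher on the maternal and 18 of 11591 on the paternal allele. Nothing is read from these calls. In CB the maternal cast allele was at 8.48 and 8.27 TPM in wt and at 12.9, 11.4 and 13.7 TPM in the clones, and the paternal BL6 allele at 4.23 and 3.97 TPM in wt and 4.39, 4.63 and 6.05 TPM in the clones. Each clone was above wt on each allele, barely so for the paternal allele of ΔE2.5. Differences this small depend on the scaling, which was not the same in each library. The autosomal BL6-to-cast ratio was 1.18 in both CB wt libraries, 1.26 in ΔE2.5 and 1.14 in ΔE2.7 and ΔP2.1.

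**Figure D3:**
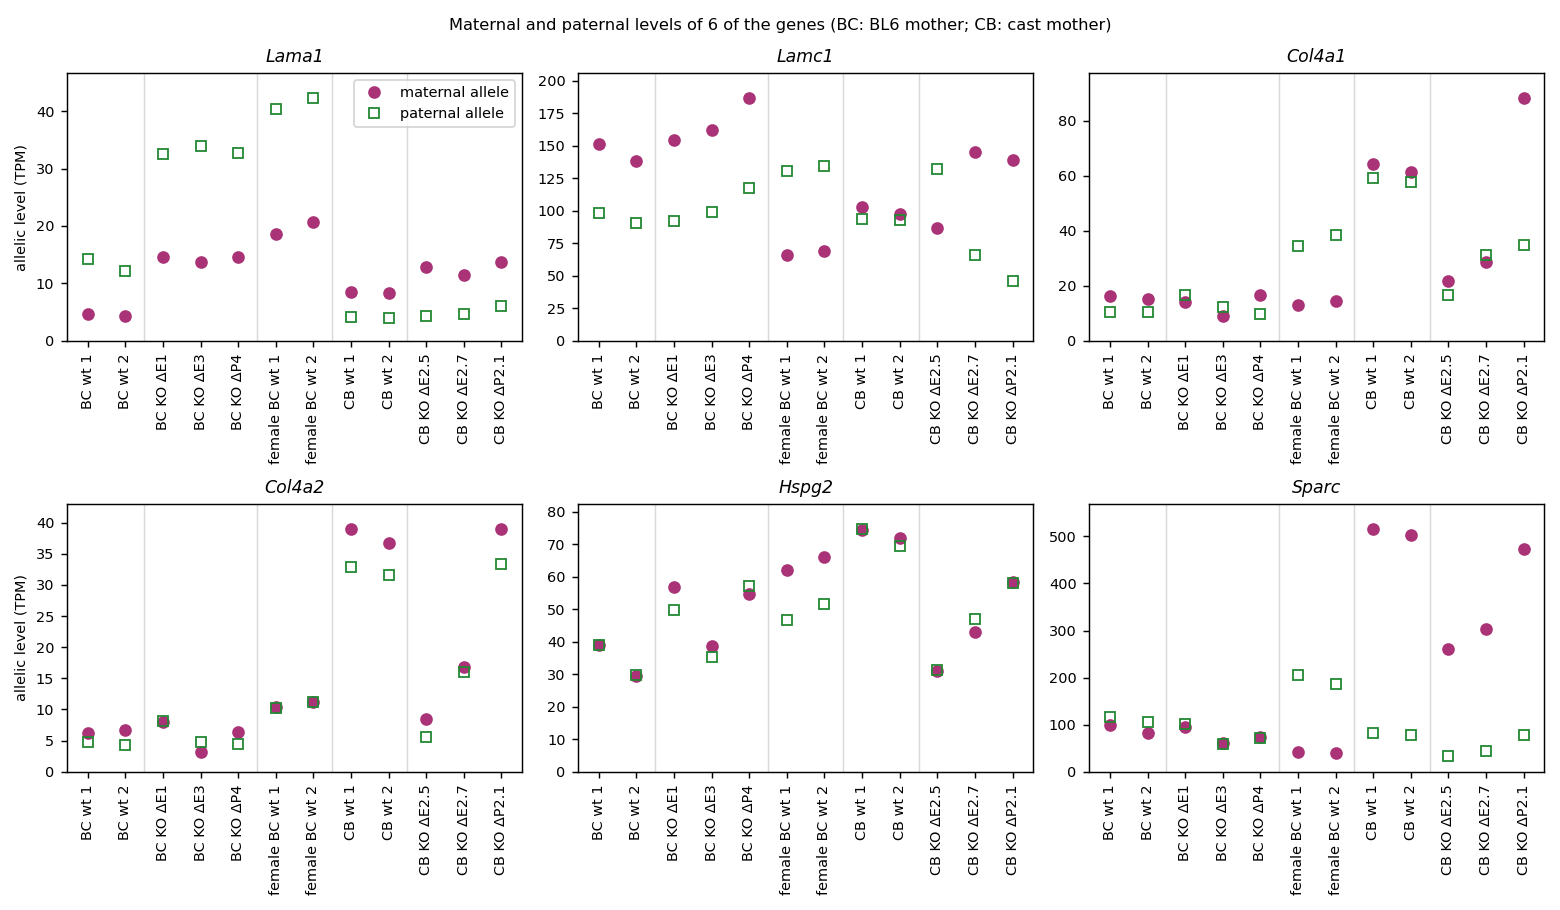
Maternal (filled circle) and paternal (open square) level in TPM (linear axis from 0) of 6 of the genes in each of the 12 libraries; grey lines part the groups. Both Lama1 alleles are higher in the BC KO clones, and in CB both Col4a2 alleles are low in ΔE2.5 and ΔE2.7.

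In the CB allelic tests the Lama1 maternal log2 fold change was 0.67 ± 0.12 with an adjusted p of 0.239 in edgeR and 0.011 in DESeq2, which called it as 1 of 115 genes, 0.942%. The paternal log2 fold change was 0.35 ± 0.16, with an adjusted p of 0.461 in edgeR. The difference between the alleles, 0.31 ± 0.10 on the log2 scale, had an edgeR adjusted p of 1, and no gene was called in this test (0 of 12283 by edgeR, 0%, with 356 genes, 2.9%, at an unadjusted p under 0.05, Lama1 among them; DESeq2 was not run here). On the maternal and on the paternal allele edgeR called 0 of 12210 and 0 of 11674 genes, 0% each; 1691 genes (13.8%) and 1357 genes (11.6%) were at an unadjusted p under 0.05, with 2 members (Lama1 and Lamb1) and 1 member (Col4a1). On the paternal allele DESeq2 called 122 genes, 1.05%, and 0 members. Without ΔP2.1 edgeR called 59 genes (0.487%) on the maternal and 41 genes (0.356%) on the paternal allele, with 0 members on either. Lama1 was then at 0.60 ± 0.10 (edgeR adjusted p = 0.0775) and 0.22 ± 0.10 (0.292), and the difference between its alleles was 0.38 ± 0.11 (adjusted p = 1).

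Both alleles of collagen IV, Hspg2 and Sparc lay below wt in the CB exonic clones, and none was called. The maternal allele of Col4a2 was at 39.0 and 36.8 TPM in CB wt and at 8.501 and 16.7 TPM in ΔE2.5 and ΔE2.7, and the paternal allele at 32.9 and 31.6 TPM against 5.51 and 16.1 TPM. Without ΔP2.1 the log2 fold changes were -1.60 ± 0.30 and -1.60 ± 0.43 (edgeR adjusted p = 0.0971 and 0.139). For Col4a1 they were -1.23 ± 0.19 and -1.19 ± 0.30 (0.0752 and 0.124), and for Hspg2 -0.88 ± 0.20 and -0.76 ± 0.21 (0.122 and 0.137). Sparc came mainly from the cast allele in CB, with a BL6 share of 13.6 to 15.8%, and in female BC wt, at 14.7 and 15.1%, but from both alleles in male BC, at 49.5 to 56.1%. Its alleles had log2 fold changes of -0.76 ± 0.11 and -0.93 ± 0.15 without ΔP2.1 (edgeR adjusted p = 0.0712 and 0.0678).

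Some allelic shares followed the chromosome and others did not. The BL6 share of Col4a1 was 65.6 and 63.7% in BC wt and 67.8% in ΔP4, but 50.1 and 46.2% in ΔE1 and ΔE3, beside the chromosome 8 medians given above. Col4a2 went alongside, at 62.3, 66.2 and 64.5% against 53.6 and 45.1%. In ΔP2.1, however, Col4a1 stood at 31.0% (exact 95% interval 29.5 to 32.5%) while Col4a2, its head-to-head neighbour, stood at 49.3% (47.2 to 51.4%) and the chromosome at 45.4%. The same gap was seen in female BC wt, where Col4a1 was at 24.3 and 24.2% and Col4a2 at 46.0 and 45.6%. These intervals cover counting error only. Lamc1 was at 65.6 to 66.4% in all male BC libraries, 51.7 and 53.1% in CB wt, 65.8% in ΔE2.5 and 34.1% in ΔE2.7, each within 3 points of its chromosome, but at 27.3% in ΔP2.1 and 29.6 and 29.9% in female BC wt, where the chromosome was at 48.7, 48.3 and 48.4%. Within 5 Mb of Lamc1, 35 genes had a median share of 47.4% in ΔP2.1, and 4 of them were below Lamc1.

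**Figure D4:**
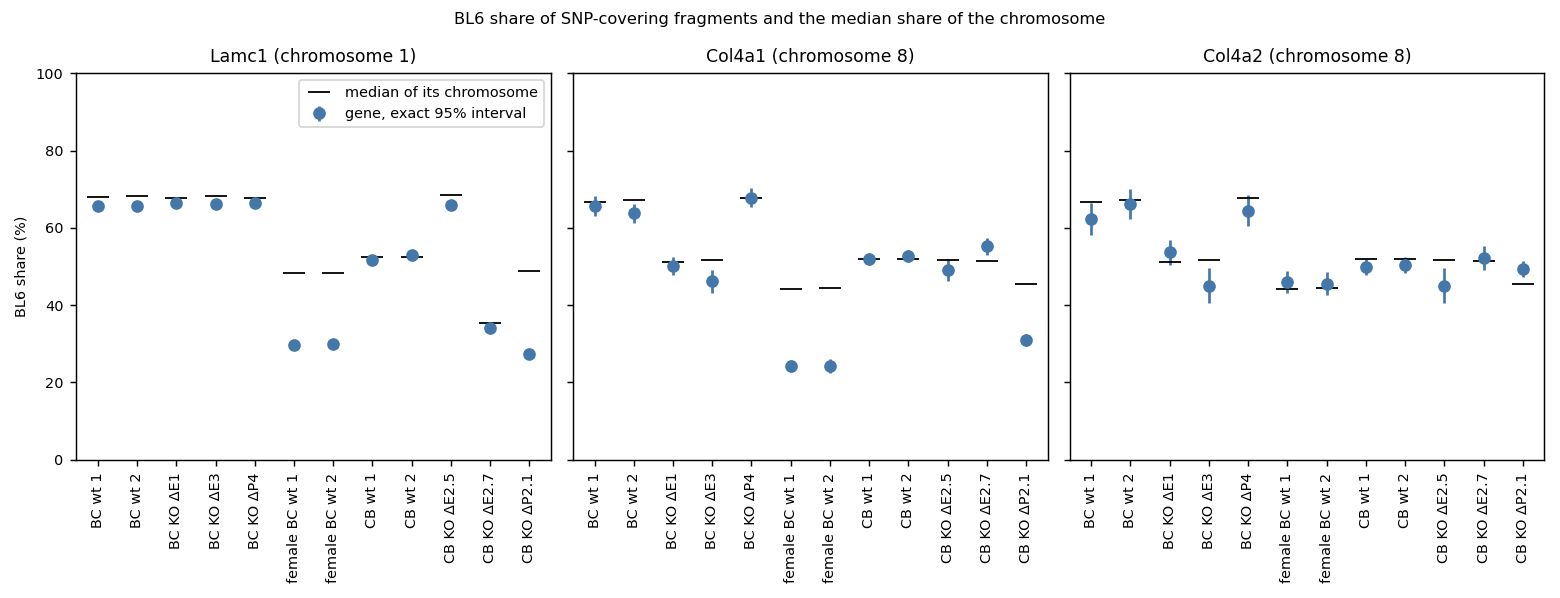
BL6 share (%) of SNP-covering fragments for Lamc1, Col4a1 and Col4a2 in each library (points, with exact 95% binomial intervals) and the median share of genes on the same chromosome (short bars). In ΔP2.1 and female BC wt, Lamc1 and Col4a1 lie well below their chromosome, at 24.2 to 31.0%, and Col4a2 does not.

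Wild-type lines also differed in these genes. In female BC wt, Lama1 was at 59.0 and 63.0 TPM, above all male libraries, 3.45 times the male BC wt mean, and a description for the reason given above. Of the other 9 genes, 5 were called higher than in male BC wt by edgeR and 0 lower, against 24.5 and 19.9% of 14049 genes. Nid1 was at 137 and 127 TPM, with a log2 fold change of 1.86 ± 0.08 (edgeR adjusted p = 8.89e-09). Nid2 was at 276 and 288 TPM (0.83 ± 0.08, 2.97e-06), and Hspg2 at 109 and 118 TPM (0.67 ± 0.11, 0.000195). Col4a1 was at 47.5 and 53.1 TPM and Col4a2 at 20.6 and 22.3 TPM, with log2 fold changes of 0.89 ± 0.08 (1.35e-06) and 0.91 ± 0.07 (8.6e-07); both calls were lost when all 12 libraries shared one estimate of the spread (edgeR adjusted p = 0.0744 and 0.176). Lama5 (0.37 ± 0.08) and Lamb1 (0.51 ± 0.07) were higher by less than 1.5-fold, Lamc1 was lower (-0.32 ± 0.07), and Sparc, at 249 and 227 TPM, did not pass (0.18 ± 0.08, adjusted p = 0.0597). Chromosome 1, with Lamc1, had a median BL6 share of 67.9 and 68.2% in male and 48.3 and 48.4% in female BC wt. For chromosome 8, with Col4a1 and Col4a2, it was 66.8 and 67.1% against 44.2 and 44.5%. The part of these chromosome differences in the levels was not tested. Sex and line cannot be told apart here, since a single female line was measured.

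CB wt had more collagen IV than BC wt. Col4a2 was 6.09-fold higher in the edgeR fit (log2 2.61 ± 0.05, adjusted p = 4.29e-07), Col4a1 4.44-fold (2.15 ± 0.05, 5.22e-07), Sparc 2.79-fold (1.48 ± 0.06, 5.3e-06) and Hspg2 2.03-fold (1.02 ± 0.11, 0.000273). Lamb1 (0.91 ± 0.06) and Lama5 (0.77 ± 0.06) were also called higher, which makes 6 of the 9 genes, against 19.8% of 13828 genes. Nid1 and Nid2 were higher by less than 1.5-fold and Lamc1 lower by less (-0.38 ± 0.05), and 0 of the 9 were called lower, against 14.7%. The ratio of Col4a1 to Col4a2 was 2.42 and 2.35 in BC wt, 1.72 and 1.75 in CB wt, 2.73 in ΔE2.5, 1.82 in ΔE2.7 and 1.70 in ΔP2.1. The ratio in ΔE2.5 was above that of every other library, the highest of which was 2.68 in ΔE3. The median BL6 share in CB wt was 52.5 and 52.4% for chromosome 1 and 52.0 and 51.8% for chromosome 8, below that of BC wt. The cross, the line, the transgene, these chromosome shares and the fibroblast genes given above cannot be told apart in this comparison.

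A wider list of 73 genes of the same structure (other laminin and collagen IV chains, other components, receptors, collagen folding and cross-linking enzymes, proteases and inhibitors) was counted in the same fits. In BC, 56 were tested and 0 called by edgeR or DESeq2; 9 had every clone above wt (16.1%, beside 21% of all genes) and 11 every clone below (19.6%, beside 10.9%), with a median log2 fold change of -0.14. By the naming rule the lowest were Lox, a lysyl oxidase that cross-links collagen (-0.77 ± 0.49), Lama3, an epithelial laminin chain (-0.68 ± 0.19), and the small proteoglycan Bgn (-0.58 ± 0.33). The highest were the laminin-binding integrin chains Itga7 (0.73 ± 0.31) and Itgb4 (0.61 ± 0.21) and the integrin ligand Npnt (0.60 ± 0.21). Lama3 was at 6.82 and 6.70 TPM in BC wt and at 4.53, 3.32 and 5.26 TPM in the clones, opposite to Lama1.

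In CB, 64 of the 73 were tested. Of these, 35 had every KO clone below wt (54.7%, beside 32.3% of all genes) and 1 every clone above (1.56%, beside 14.7%), and the median log2 fold change was -0.38 against 0.01 over all genes. Every clone was below wt for 10 of 15 receptors, 9 of 19 folding and cross-linking genes, 7 of 15 other components, 5 of 7 proteases and inhibitors and 4 of 6 other laminin chains. edgeR called 0 of them, and DESeq2 called 4, all lower, beside 2.41% of all genes called lower. Serpinh1, the collagen chaperone HSP47, was at 491 and 466 TPM in wt and at 142, 244 and 311 TPM in ΔE2.5, ΔE2.7 and ΔP2.1 (-0.96 ± 0.31, adjusted p = 0.19 in edgeR and 0.0242 in DESeq2). Frem2, a component of the Fraser complex of epithelial basement membranes, was at 27.6 and 26.7 TPM in wt and at 14.5, 15.2 and 16.3 TPM in the clones (-0.74 ± 0.08, 0.108 in edgeR and 1.19e-10 in DESeq2). Its partner Fras1 (-0.93 ± 0.28) and the integrin chain Itgb5 (-0.64 ± 0.19) were the others. Among genes not called, Tinagl1, which encodes a laminin-binding matrix protein, had the lowest log2 difference, -1.12 ± 0.54, followed by Bgn with -1.08 ± 0.86, and Col18a1, the collagen XVIII gene, was the 1 gene with every clone above wt (0.20 ± 0.08). Serpinh1, Frem2 and Itgb5 were below wt also in ΔP2.1, in which collagen IV was not. Without ΔP2.1, 63 of the list were tested, and both exonic clones were below wt for 52 (82.5%, beside 42.2% of all genes) and above it for 4 (6.35%, beside 24.8%). edgeR then called 21 lower and 0 higher, 33.3% beside 4.13% of genes called lower, among them 8 of 15 receptors, and the median log2 fold change was -0.54. Tinagl1 (-1.78 ± 0.34, edgeR adjusted p = 0.0464), Frem2 (-0.78 ± 0.06, 0.0187) and Itgb5 (-0.82 ± 0.12, 0.0317) were called, and Serpinh1 (-1.22 ± 0.28, 0.0606), Fras1 (-1.12 ± 0.28, 0.0712), Bgn (-2.22 ± 0.65, 0.0953) and Col18a1 (0.21 ± 0.08, 0.136) were not.

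**Figure D5:**
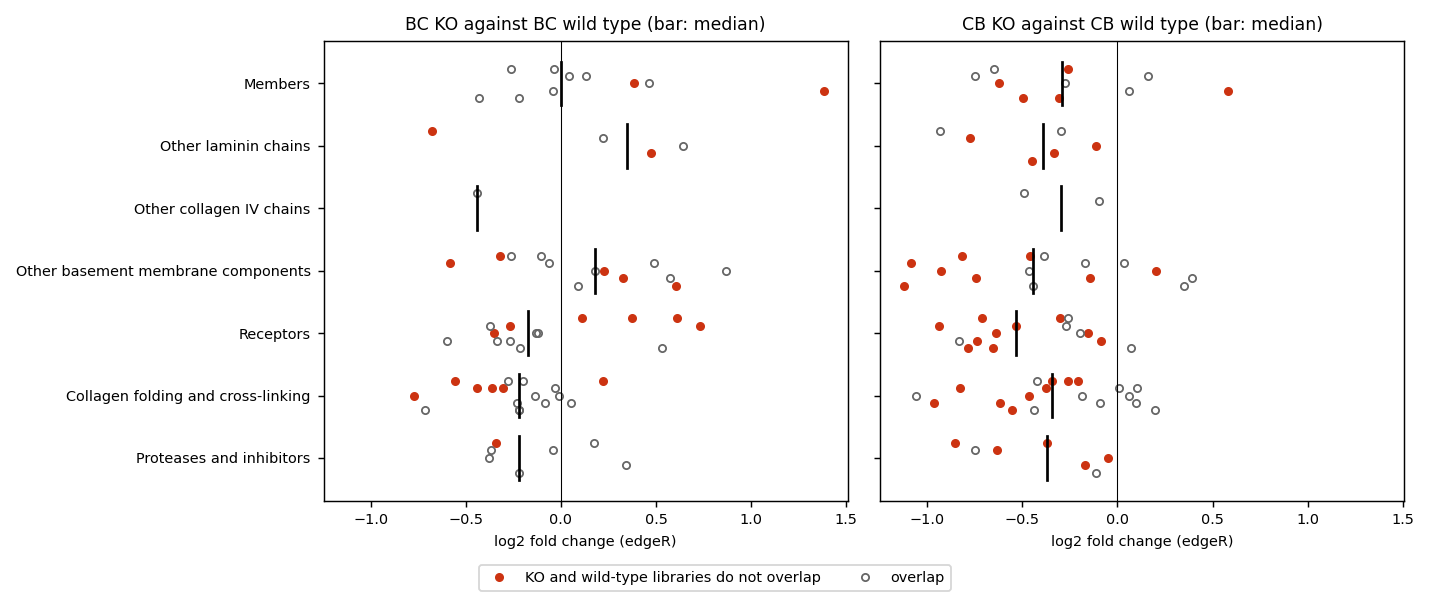
Log2 fold change (edgeR, KO against wt) of the 10 members and of the tested genes of the wider list by role, in BC (left) and CB (right); filled points are genes whose KO and wt libraries do not overlap and bars are medians. In CB 35 of 64 wider-list genes have every KO clone below wt and 1 has every clone above.

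The genes whose levels were most like Lama1 over the 10 male libraries (Pearson's r of log2(TPM + 1), 13356 genes compared, members apart) were Zfp346 (r = 0.978), Atp4a (0.975), Adgrb1 (0.958), Sh2d5 (0.953) and Ccdc39 (0.952). All 5 were higher in BC KO than in BC wt, for instance Adgrb1 with means of 9.04 and 5.58 TPM, which largely follows from how they were picked. The values describe differences between the groups, which the 10 points share. Of the members, Lamc1 was nearest (r = 0.794, rank 686), and Lama5, Lamb1, Sparc, Col4a1, Col4a2, Nid2 and Hspg2 had negative values down to -0.784.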

How the data were processed

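RNA was sequenced as 75-base single-end reads from unstranded libraries. Per the study's methods the authors mapped them with TopHat and Bowtie2 to BL6 (mm10) and a SNP-substituted cast genome, kept reads with a mapping quality of at least 30, and deposited per gene estimated counts (expected counts), for either genome, each genome, and fragments with BL6 or cast SNPs. The submitters' processing notes name Bowtie2 2.2.5. The counts were rounded. TPM used the longest GENCODE vM21 transcript with a RefSeq link, or the longest of all where no transcript had such a link. Of 24346 genes, 23310 matched and 1036 took the median of 2283 bases. A gene had to exceed 1 TPM in any library compared, and was then tested with edgeR 4.0.16 (TMM, quasi-likelihood, Benjamini-Hochberg), and called at an FDR under 0.05 and at least 1.5-fold; DESeq2 1.42.0 was the alternative. SE is the log2 fold change over the square root of F. The 3 genes of the off-target deletion were left out in BC. Shares carry exact 95% binomial intervals. Scripts were tested on simulated data.

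The members and lists were chosen with earlier results of these data known. Named genes were the 10 members; of the wider list, per KO comparison, those called by either tool and the 3 highest and 3 lowest with a mean of at least 1 TPM and all clones on one side of wt; and the 5 most like Lama1. wt replicates differed by more than counting noise (chi-square per degree of freedom 15.9 to 32.8). Alternatives covered the tool, scaling, filter, samples in the fit, genome, chromosome median, replicate block and leaving out each sample. Same-numbered wt libraries of female and male BC deviated together with r = 0.239, and those of CB and BC with r = 0.101, over 2 pairs each; nothing in the labels says that a number marks a shared batch.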

Additional observations from a re-analysis of the deposited data

Results flagged for a closer look

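Hspg2 was flagged because its KO clones lay on opposite sides of the wt mean in the crosses. Each BC clone was above the BC wt mean, by 0.64, 0.11 and 0.71 on the log2 scale in ΔE1, ΔE3 and ΔP4, though ΔE3 lay between the wt libraries. Each CB clone was below the CB wt mean, with -1.23, -0.69 and -0.32 in ΔE2.5, ΔE2.7 and ΔP2.1. The KO effect in CB minus that in BC was -1.10 ± 0.35 (SE), which did not pass the edgeR interaction test (adjusted p = 0.19, and 0.0616 to 0.562 leaving out each library) or DESeq2 (0.0505). Groups of 2 and 3 libraries were too small to search for outlying samples.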

How the results depend on the processing

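Outside the BC KO comparisons there were 233 alternative values of members, leave-outs apart. They include those of Lama1 that rest on BC wt libraries, which are descriptions only. Of the 233, 227 kept their direction and side of the threshold. The exceptions were Col4a1 and Col4a2 in the female comparison with all 12 libraries in one fit, and Lama1 on the CB maternal allele (DESeq2). Lama1 in the CB minus BC effect was another, called with DESeq2 and with all 12 libraries. Lamc1 in CB turned from 0.16 to -0.13 with the chromosome median removed. Counts of called genes moved with the tool: DESeq2 called 260 (BC), 494 (CB), 555 (CB minus BC), 47 and 37 (BC maternal and paternal) and 115 and 122 (CB maternal and paternal), against 4, 0, 9, 4, 0, 0 and 0 with edgeR. With all 12 libraries in one fit the counts were 61 (BC), 56 (CB) and 119 (CB minus BC), and with no filter the last was 14. Members called moved from 0 to 1 with DESeq2 for the CB minus BC effect, BC paternal and CB maternal alleles (Lama1 each time), and to 1 with all 12 libraries for the CB minus BC effect. Nothing is read from the Lama1 calls in the CB minus BC effect and on the BC paternal allele, because the BC values chose the gene. The cause of these differences between tools was not tested.

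Leaving out 1 library gave 1 to 4 genes in BC (and 0 members, since Lama1 then missed the FDR threshold whichever library was left out), 0 to 927 in CB (0 to 2 members), 3 to 306 for CB minus BC (0 to 1 member), 2 to 237 and 0 to 7 on the BC maternal (0 to 1 member) and paternal alleles, and 0 to 59 and 0 to 41 on the CB maternal and paternal alleles. The upper ends for CB and for CB minus BC came without ΔP2.1, and those of the BC alleles without ΔP4. Among the tested CB values, those that changed sign ranged over leave-outs from -0.10 to 0.17 (Nid2, CB), -0.042 to 0.15 (Nid2, CB maternal), -0.10 to 0.23 (Nid2, CB paternal), -1.23 to 0.011 (Col4a1, CB maternal), -0.30 to 0.042 (Lamb1, CB paternal) and -0.69 to 0.15 (Lamc1, CB paternal), and none of these was called. Among the BC descriptions, the ranges that crossed 0 were those of Col4a1 (-0.19 to 0.08), Col4a2 (-0.28 to 0.25; maternal -0.37 to 0.18) and Nid2 (-0.28 to 0.13; maternal -0.36 to 0.11; paternal -0.21 to 0.15). With the replicate block, 6283 genes and 6 members were called for female against male BC wt and 4825 genes and 6 members for CB against BC wt, and no call on a member changed. Allelic values rest on the fragments that cover a SNP, which limits their precision.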
